A study of Mus musculus with 8 samples.

Results

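Serum amyloid A and orosomucoid are secreted plasma proteins of the acute phase, and 6 genes of these families were followed here in mouse liver: Saa2, Saa3 and Saa4, and Orm1, Orm2 and Orm3. They are the members with a row of their own in the deposited array table, 6 of 22180 genes measured, and each has 1 such row. Saa1 shares its row with Saa2 and is not among them. Liver RNA came from 4 mice labelled IL-10 knockout (interleukin-10, a cytokine that restrains inflammation) and 4 wild-type mice, 1 array per sample, numbered here within each group as in the sample titles. All are labelled C57BL/6, female, 6 weeks old, kept free of specific pathogens, and given 3% dextran sulfate sodium (DSS, which injures the colon lining and causes colitis) in the drinking water for 7 days. The comparison therefore asks how the genotypes differ when both have colitis, and no untreated mice enter it.

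In inflammation the hepatocyte raises the synthesis of acute-phase proteins. Interleukin-1 and tumour necrosis factor act on it through NF-kB, and interleukin-6 and related cytokines through STAT3. Transcription factors of the C/EBP family act with both, and glucocorticoids enhance the response. Saa1 and Saa2 encode the inducible serum amyloid A proteins of liver, which travel in plasma on high-density lipoprotein. Saa3 is an inducible relative that in mice is also made by macrophages and fat cells, and Saa4 is the constitutively made form. The Orm genes encode alpha-1-acid glycoprotein, a heavily glycosylated lipocalin that carries lipophilic drugs and steroids in plasma. Orm1, Orm2 and Orm3 lie side by side on chromosome 4, and the Saa genes form a cluster on chromosome 7.

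The sequences before the start sites of the members are shown because several of the genes differed in the same direction, and because they carry a shared short word. RefSeq (build GRCm38.p6) gave a promoter for 5 of the 6 members, all but Orm1. The 250 bases before the start are printed 5′ to 3′ on the strand of the gene, and capitals mark each match to TTGCNNAA on either strand, a simple form of the C/EBP binding word.
Saa3, chr7:46715677-46715926, minus strand: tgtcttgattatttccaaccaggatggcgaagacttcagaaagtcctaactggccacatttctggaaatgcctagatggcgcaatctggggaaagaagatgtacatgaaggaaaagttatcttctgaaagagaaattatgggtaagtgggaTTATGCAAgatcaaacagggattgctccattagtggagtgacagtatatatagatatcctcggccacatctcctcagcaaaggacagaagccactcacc
Saa2, chr7:46751583-46751832, plus strand: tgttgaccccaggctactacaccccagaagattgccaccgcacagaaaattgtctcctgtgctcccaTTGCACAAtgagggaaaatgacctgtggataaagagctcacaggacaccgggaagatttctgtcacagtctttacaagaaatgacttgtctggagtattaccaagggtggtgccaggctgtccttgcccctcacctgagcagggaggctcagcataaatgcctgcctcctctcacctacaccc
Saa4, chr7:46732604-46732853, minus strand: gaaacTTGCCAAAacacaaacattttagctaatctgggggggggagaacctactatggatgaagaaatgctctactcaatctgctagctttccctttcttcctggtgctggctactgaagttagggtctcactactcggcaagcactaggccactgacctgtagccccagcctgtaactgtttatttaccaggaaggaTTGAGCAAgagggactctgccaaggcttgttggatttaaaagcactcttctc
Orm3, chr4:63355908-63356157, plus strand: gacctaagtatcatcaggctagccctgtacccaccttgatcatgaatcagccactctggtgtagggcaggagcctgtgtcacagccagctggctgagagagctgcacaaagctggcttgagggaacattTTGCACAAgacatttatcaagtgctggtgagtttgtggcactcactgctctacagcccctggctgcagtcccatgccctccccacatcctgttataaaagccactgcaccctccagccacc
Orm2, chr4:63362199-63362448, plus strand: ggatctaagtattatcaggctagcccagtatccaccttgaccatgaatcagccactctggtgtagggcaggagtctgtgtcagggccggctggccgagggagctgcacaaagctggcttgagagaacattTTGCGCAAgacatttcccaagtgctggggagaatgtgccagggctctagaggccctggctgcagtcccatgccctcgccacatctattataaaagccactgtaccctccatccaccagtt
The word occurred in all 5 windows, against 9.56% of 32851 windows of the same length in the RefSeq table. It lay 99 to 92 bases before the start in Saa3, 183 to 176 in Saa2, 121 to 114 in Orm3 and 120 to 113 in Orm2. In Saa4 it lay at 52 to 45 and again at 245 to 238. The Orm3 and Orm2 windows were 85.5% identical in a global alignment, so their matches are not separate observations. The Saa windows aligned with one another at 42.8% to 48.0%. Other words were rarer in these windows. TATAAA on the gene's strand was found in Orm2 and Orm3 (7.59% of all windows), and ACANNNTGT, a form of the glucocorticoid receptor word, in Orm3 (5.84%). TTCNNNGAA, a STAT word, and GGGANNTTC, an NF-kB word, were searched on both strands. These letters were in none of the 5 windows, against 7.02% and 3.23% of all windows. With shares this low, 5 windows would often hold neither word, so their absence says little. No match of one word overlapped a match of another, and a match describes letters only. The words were chosen after the sequences had been seen.

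The labels were checked before the members were compared. Although all samples are labelled female, 2 arrays of each group carried Y-linked signal. In these 4 arrays Xist, which is transcribed from the inactive X chromosome, read 5.62 to 6.32 on the log2 scale, and the mean of the Y-linked genes Eif2s3y, Kdm5d and Uty read 8.20 to 8.52. In the other 4 arrays Xist read 11.68 to 11.82 and the Y-linked mean 4.30 to 4.48. The sets are balanced between genotypes, and the members' differences are given over all arrays and within each set, with those of other called genes where the sets lay far apart. Il10, the targeted gene, was higher in the arrays labelled knockout, at 5.97 ± 0.32, against 4.97 ± 0.08 in wild-type arrays (SD, n = 4 each; log2 difference 1.00; limma adjusted p = 0.00851). The sources used here do not say which part of the gene is mutated or which part the probes read. It therefore does not check the labels, on which each direction below depends.

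Saa3 and Orm3 rose in the arrays labelled knockout. The other members were higher in each of those arrays too, by smaller amounts that did not pass the test. Levels are log2 values from robust multi-array averaging (RMA), and a gene was called when its limma p, adjusted by Benjamini-Hochberg over all 22180 genes, was below 0.05. Of the 6 members 2 were called, both higher, while 1.56% of all genes were called higher, 1.59% lower and 3.15% in either direction. The groups did not overlap in any of the 6, with the arrays labelled knockout on top, which held for 7.20% of all genes. The median log2 difference was 0.65 over the 6 members, and 0.03 over all genes. Members of a family share sequence and inducers and were picked with earlier results known, so the 6 are not independent observations. RNA of whole liver cannot tell a change in transcript per cell from a change in the number of cells that make it.

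**Figure D1:**
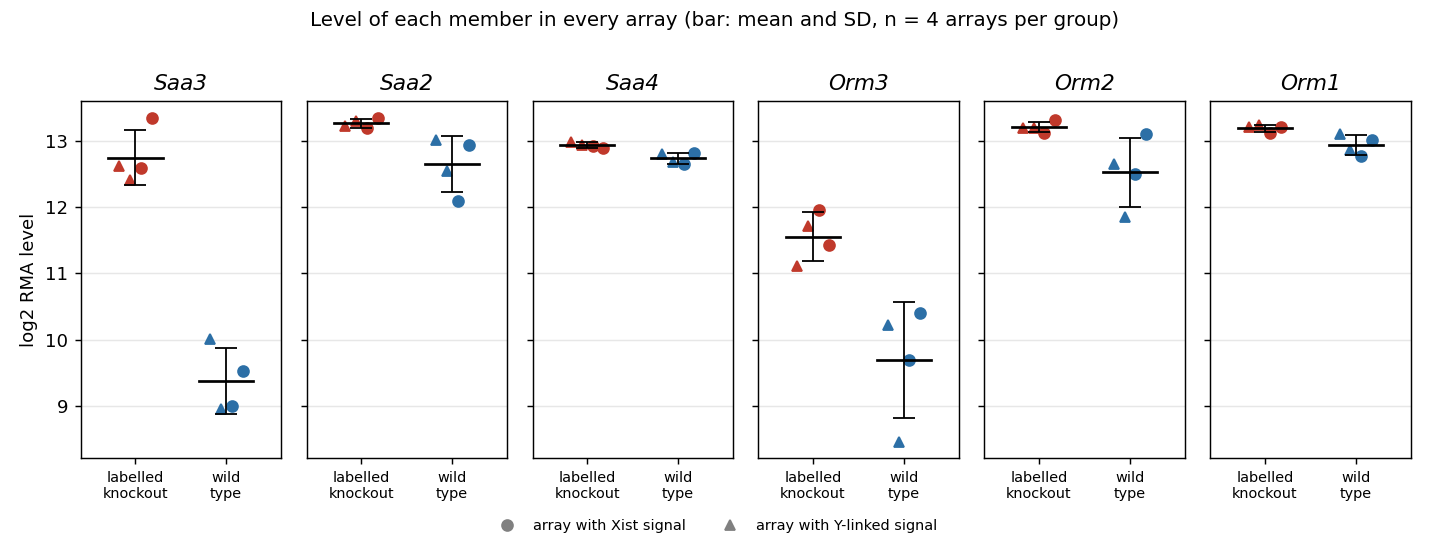
Log2 RMA level of each member in every array, with arrays labelled knockout left and wild-type arrays right in each panel; bars give the mean and SD over 4 arrays, circles are arrays with Xist signal and triangles arrays with Y-linked signal. Saa3 and Orm3 have a gap between groups of 2.40 and 0.70 log2 units, while the other 4 members are separated by at most 0.17.

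Saa3 read 12.62, 12.41, 12.60 and 13.35 in KO-labelled arrays 1 to 4 and 10.01, 8.96, 9.001 and 9.52 in WT arrays 1 to 4 (log2 levels). Every array labelled knockout stood at least 2.40 log2 units above the highest wild-type array. Group means of 12.75 ± 0.42 and 9.37 ± 0.50 (SD, n = 4 arrays each) gave a log2 difference of 3.37 (SE 0.26; 95% interval 2.80 to 3.95; limma adjusted p = 0.00267). The spread within each group was similar, covering 1.92-fold among arrays labelled knockout and 2.08-fold among wild-type arrays. Within the sets the log2 difference was 3.71 (Xist signal) and 3.03 (Y-linked signal). The difference between the sets was not called (Y-linked set minus Xist set -0.68, SE 0.49, limma adjusted p = 0.922). Saa3 kept its call without any single array, with adjusted p up to 0.0174.

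Saa2, one of the inducible liver forms, read 13.22, 13.31, 13.19 and 13.34 in the arrays labelled knockout and 13.02, 12.54, 12.09 and 12.94 in wild-type arrays (log2 levels). The wild-type arrays spread over 1.90-fold and the others over 1.11-fold. The log2 difference was 0.62 (SE 0.18; 95% interval 0.23 to 1.01), and it did not pass (limma adjusted p = 0.0867). Saa4, the constitutive form, had the narrowest ranges: 12.99, 12.94, 12.93 and 12.89 in the arrays labelled knockout, and 12.80, 12.68, 12.65 and 12.82 in wild-type arrays. Its log2 difference was 0.20 (SE 0.07; 95% interval 0.05 to 0.35; limma adjusted p = 0.138). The groups lay 0.07 log2 units apart at their nearest arrays for Saa4 and 0.17 for Saa2. Within the sets the log2 difference of Saa2 was 0.75 (Xist signal) and 0.49 (Y-linked signal), and that of Saa4 0.17 and 0.22 in the same order of sets.

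Orm3 was the orosomucoid gene with a called difference. It read 11.10, 11.71, 11.96 and 11.43 in the arrays labelled knockout and 10.22, 8.45, 9.69 and 10.40 in wild-type arrays (log2 levels). Group means of 11.55 ± 0.37 and 9.69 ± 0.88 (SD, n = 4 arrays each) gave a 3.63-fold difference, 1.86 on the log2 scale (SE 0.37; 95% interval 1.03 to 2.69; limma adjusted p = 0.0315). WT array 2 lay lowest, and the wild-type arrays spread over 3.88-fold. Its call was lost without WT array 1 (adjusted p = 0.0560) or 3 (0.0878), and without KO-labelled array 2 (0.0619), 3 (0.0621) or 4 (0.0771), while the log2 difference stayed between 1.45 and 2.10 with each array left out in turn. Within the sets it was 1.65 (Xist signal; adjusted p = 0.0464) and 2.07 (Y-linked signal; 0.177).

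Orm2 read 13.19, 13.20, 13.12 and 13.32 in the arrays labelled knockout and 12.66, 11.84, 12.50 and 13.10 in wild-type arrays (log2 levels). The nearest arrays of the groups were 0.03 log2 units apart, with WT array 4 just under KO-labelled array 3. The log2 difference was 0.68 (SE 0.21; 95% interval 0.21 to 1.15; limma adjusted p = 0.108), and it passed without WT array 4 (0.87; adjusted p = 0.0452). Within the sets it was 0.42 (Xist signal; adjusted p = 0.365) and 0.94 (Y-linked signal; 0.188). Orm1 read 13.20, 13.24, 13.12 and 13.20 in the arrays labelled knockout and 13.10, 12.86, 12.77 and 13.01 in wild-type arrays. Its log2 difference was 0.25 (SE 0.08; 95% interval 0.07 to 0.44; limma adjusted p = 0.127), with 0.01 log2 units between the nearest arrays, and within the sets it was 0.27 (Xist signal) and 0.24 (Y-linked signal). The 3 Orm genes are close copies, as are Saa1 and Saa2, and how far the probes of one row read RNA of another gene was not tested. RefSeq also lists Saa1 and Saa2 each as an older name of the other.

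**Figure D2:**
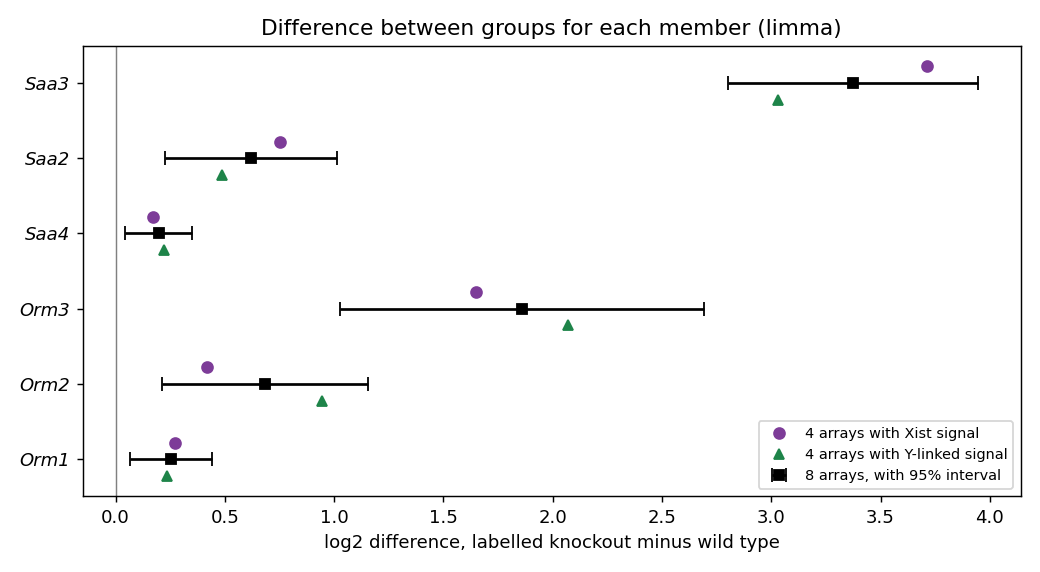
Log2 difference of each member, labelled knockout minus wild type. Squares with 95% intervals use all 8 arrays, circles the 4 arrays with Xist signal and triangles the 4 with Y-linked signal. Every estimate lies above 0, from 0.17 for Saa4 to 3.71 for Saa3, both in arrays with Xist signal.

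The measured difference in Saa3 was larger than that in each other member. Saa2, Saa4, Orm1 and Orm2 read close to the top of the scale, and whether that sets part of the gap was not tested; Orm3 read lower. The level of Saa3 minus that of another member was taken in each array on the log2 scale and compared between groups. Relative to Saa4, Saa3 differed by 3.18 log2 units more, relative to Orm1 by 3.12, relative to Saa2 by 2.75, relative to Orm2 by 2.69 and relative to Orm3 by 1.51. Each of the 5 pairs had groups that did not overlap and an exact two-sided permutation p of 0.0286 (n = 4 each), the smallest that 70 arrangements allow, and 0.0286 adjusted over the 5 pairs. Saa3 had the largest log2 difference of all 22180 genes and stands in every pair, so separation of the groups was likely beforehand. The 5 tests share its values and are not separate support. With each array left out in turn the value relative to Orm3 lay between 1.27 and 1.79. Within the sets, which are too small to test, it was 2.07 (Xist signal) and 0.96 (Y-linked signal).

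Saa2, Saa4, Orm1 and Orm2 read close to the top of the scale in the arrays labelled knockout, with means of 12.94 to 13.27 where the highest value of any row was 13.8. Their wild-type means were 12.53 to 12.94. A member's wild-type SD exceeded its SD in the arrays labelled knockout in 6 of 6 members, against 43.7% of all genes, and the median ratio of the 2 SDs was 2.65 over the members and 0.90 over all genes. For Orm2 the ratio was 6.43 and for Saa2 5.96, while Saa3 had 1.20. Wild-type values of the members moved together (Pearson r 0.46 to 0.97 over 4 arrays, 15 pairs). The 6 ratios are therefore not separate observations. In the arrays labelled knockout 53 genes had a mean at or above that of Saa4. Of these 4 were called, beside 3.15% of all genes. The largest log2 difference among the 53 was 2.23, for Hamp, whose wild-type mean was 10.79. The 53 were picked by their level in the arrays labelled knockout, so a gene that rose entered more readily. Neither the count called nor the largest difference therefore shows how far genes near the top can differ. Whether the scale narrows differences this close to its top was not tested.

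**Figure D3:**
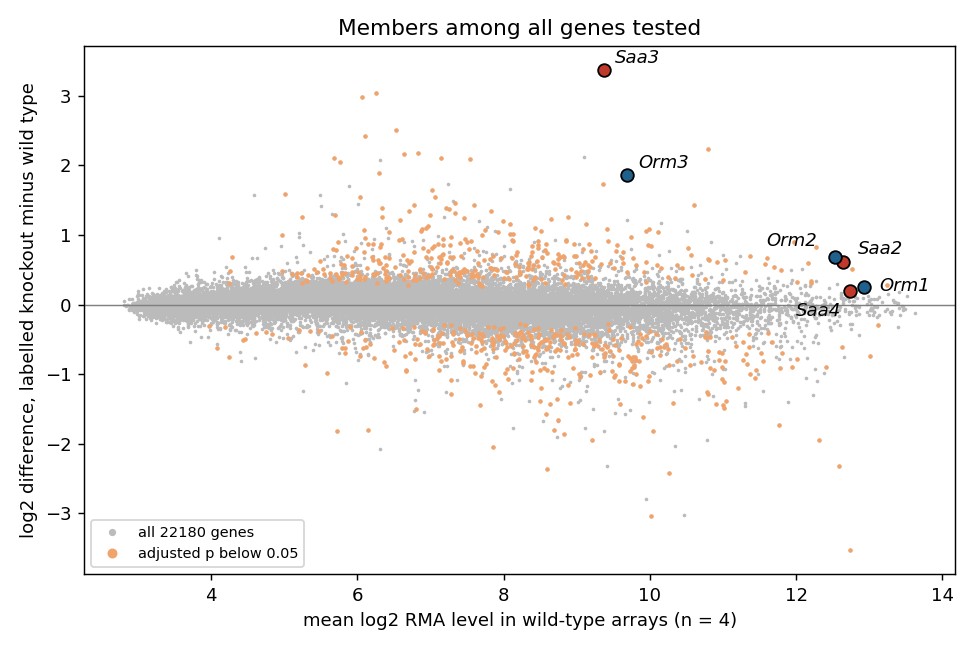
Log2 difference (labelled knockout minus wild type) against the mean log2 level in 4 wild-type arrays for all 22180 genes, with called genes in orange, Saa members in red and Orm members in blue. Saa3 and Orm3 start from wild-type means of 9.37 and 9.69, and the other 4 members sit at the right edge between 12.53 and 12.94.

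The wild-type arrays ranked alike for all members. WT arrays 1 and 4 were the 2 highest of their group in 6 of 6 members, and WT arrays 2 and 3 the 2 lowest. This order, singled out after the values were seen, held for 12.7% of all genes. It also held for 14 of 20 other induced acute-phase genes, 4 of 14 signalling and transcription factor genes, 3 of 14 serum amyloid A partners, 2 of 11 negative acute-phase genes, 1 of 9 glucocorticoid receptor and target genes, 1 of 18 inducing cytokines and receptors and 0 of 2 asialoglycoprotein receptor genes. WT array 1 carries Y-linked signal and WT array 4 Xist signal, so the order does not follow the sets. No common order was seen among the arrays labelled knockout: KO-labelled array 4 was highest for 3 members (Saa2, Saa3 and Orm2) and each of the others for 1.

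**Figure D4:**
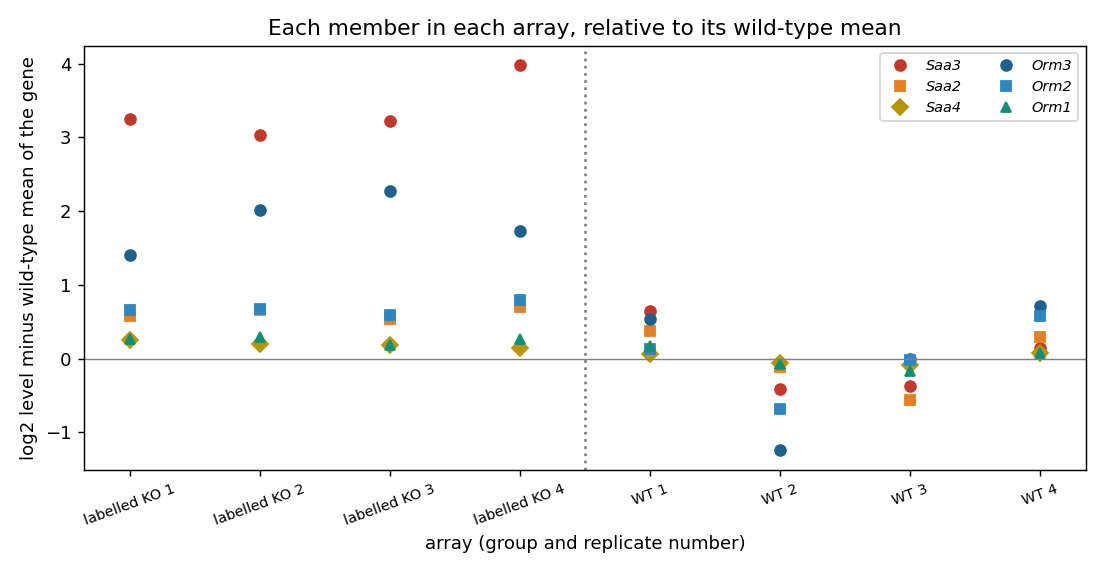
Log2 level of each member in each array minus the mean of that gene over 4 wild-type arrays, with arrays labelled knockout left of the dotted line and wild-type arrays right of it. WT arrays 1 and 4 lie above WT arrays 2 and 3 for every member, and Saa3 lies 3.04 to 3.98 above its wild-type mean in the arrays labelled knockout.

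Other acute-phase genes were compared as a background to the members. The list counts below stand beside 1.56% of all genes called higher and 1.59% called lower. Of 20 induced acute-phase genes measured besides the members, 6 rose, none fell and 14 did not pass, and all 20 had a log2 difference above 0 (56.0% of all genes did), with a median of 0.19. The lipopolysaccharide receptor Cd14 rose by 2.51 on the log2 scale (limma adjusted p = 0.0105), the iron hormone gene Hamp by 2.23 (0.0425), the interleukin-1 antagonist Il1rn by 2.11 (0.00851), the metalloreductase Steap4 by 0.89 (0.0251), the siderophore-binding lipocalin Lcn2 by 0.82 (0.0261) and the lipopolysaccharide-binding protein Lbp by 0.61 (0.00941). Cd14, Il1rn and Lbp kept their calls with each array left out in turn. Steap4 lost its call without WT arrays 1, 2 or 3 or KO-labelled array 4, Lcn2 without WT arrays 1 or 3 or KO-labelled arrays 3 or 4, and Hamp when any array other than WT array 4 was left out (adjusted p up to 0.0812, 0.0790 and 0.120). The log2 difference of Hamp was 1.20 in arrays with Xist signal and 3.26 in those with Y-linked signal. Among other plasma proteins of the list, the log2 difference was 0.18 for haptoglobin (Hp), 0.28 for the pentraxin Apcs and 0.08 for C-reactive protein (Crp). None of these 3 genes passed. Hp averaged 13.59 in arrays labelled knockout and 13.41 in wild-type arrays, and Crp 12.75 and 12.66. Both read close to the top of the scale, and whether that limits their differences was not tested. The groups did not overlap for 11 of the 20 genes, all higher, Hp among them, against 7.20% of all genes.

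Of 11 genes listed here as negative acute-phase genes, 2 fell and 9 did not pass, with a median log2 difference of -0.11. The list was chosen with earlier results of these data known. Serpina6, the corticosteroid carrier, fell by 1.95 on the log2 scale (limma adjusted p = 0.0209), and lost its call without WT arrays 1, 2 or 3 (up to 0.0657). The lectin Mbl2 fell by 1.14 (0.0120), and whether it belongs on such a list was not checked. The log2 difference of Serpina6 was -2.69 in arrays with Xist signal and -1.20 in those with Y-linked signal, and that of Mbl2 -1.53 and -0.76 in the same order of sets. Albumin (Alb) had a log2 difference of -0.12 and transthyretin (Ttr) of -0.16, neither of which passed. The groups did not overlap for 5 of the 11 genes, all lower, Alb and Ttr among them. Over all genes 12.9% did not overlap, in either direction.

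Among the cytokines and receptors that induce these genes, 2 receptors rose, 1 fell and 15 of 18 genes did not pass, with a median log2 difference of 0.13. The interleukin-1 receptor Il1r1 read 12.05 ± 0.30 in arrays labelled knockout and 10.61 ± 0.31 in wild-type arrays (SD, n = 4 each; log2 difference 1.44; limma adjusted p = 0.00614). The interleukin-22 receptor subunit Il22ra1 rose by 1.26 on the log2 scale (0.00730), and both kept their calls with each array left out in turn. The leukemia inhibitory factor receptor Lifr fell by 0.66 (0.0379), a call lost when any array other than KO-labelled array 1 was left out (up to 0.113). The log2 difference of Lifr was -0.90 in arrays with Xist signal and -0.42 in those with Y-linked signal. The ligands did not pass: log2 differences were -0.22 for Il6, -0.02 for Il1b and 0.19 for Tnf, and the interleukin-6 receptor Il6ra had 0.31. Il6 averaged 4.14 in arrays labelled knockout and 4.36 in wild-type arrays, and the ligand Il22 2.88 and 2.92. Both lay toward the lower end of a scale that starts at 2.49, so their values say little about a difference. Whether these cytokines differed in plasma or colon was not measured.

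Of 14 signalling and transcription factor genes of the acute phase, 3 rose and 11 did not pass, with a median log2 difference of 0.16. Cebpd, an inducible C/EBP factor, rose by 0.84 on the log2 scale (limma adjusted p = 0.0292), the adaptor Myd88 by 0.77 (0.0151) and the NF-kB inhibitor Nfkbia by 0.62 (0.0259). Cebpd lost its call without any single wild-type array or KO-labelled arrays 3 or 4, Myd88 without WT arrays 1 or 2, and Nfkbia without WT arrays 2, 3 or 4 or KO-labelled array 4 (up to 0.0859, 0.0533 and 0.0790). The log2 difference of Cebpd was 1.13 in arrays with Xist signal and 0.54 in those with Y-linked signal. Stat3 had 0.24, the STAT3 feedback inhibitor Socs3 0.63, Cebpb 0.17 and the hepatocyte factor Hnf4a 0.17, and none of these passed. Of 9 genes of the glucocorticoid receptor and its targets, 2 rose, 1 fell and 6 did not pass, with a median of 0.47. The tyrosine aminotransferase Tat rose by 0.51 (0.0247) and the clock gene Per1 by 0.87 (0.0407), while the receptor itself, Nr3c1, fell by 0.32 (0.0490). Tat lost its call without WT arrays 2, 3 or 4 or KO-labelled array 4, Per1 without any single wild-type array or KO-labelled arrays 2 or 4, and Nr3c1 when any array other than KO-labelled array 1 was left out (up to 0.0758, 0.101 and 0.133). The log2 difference of Tat was 0.70 in arrays with Xist signal and 0.31 in those with Y-linked signal.

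Of 14 receptors and lipoprotein partners of serum amyloid A, 3 rose and 11 did not pass, with a median log2 difference of 0.18. Fpr2, a formyl peptide receptor that binds serum amyloid A, rose by 1.28 on the log2 scale (limma adjusted p = 0.0401), the cholesterol exporter Abca1 by 0.65 (0.0189) and Tlr4 by 0.42 (0.0401). Fpr2 and Tlr4 lost their calls without any single wild-type array or KO-labelled arrays 2 or 4, and Abca1 without WT arrays 1, 2 or 3 (up to 0.103, 0.114 and 0.0612). The lipoprotein receptor Scarb1 had 0.05 and apolipoprotein A-I (Apoa1), the main protein of the particle that carries serum amyloid A, -0.11; neither passed. Asgr1 and Asgr2, subunits of the hepatocyte receptor that clears glycoproteins such as orosomucoid once they lose sialic acid, had log2 differences of -0.11 and -0.28 and did not pass.

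**Figure D5:**
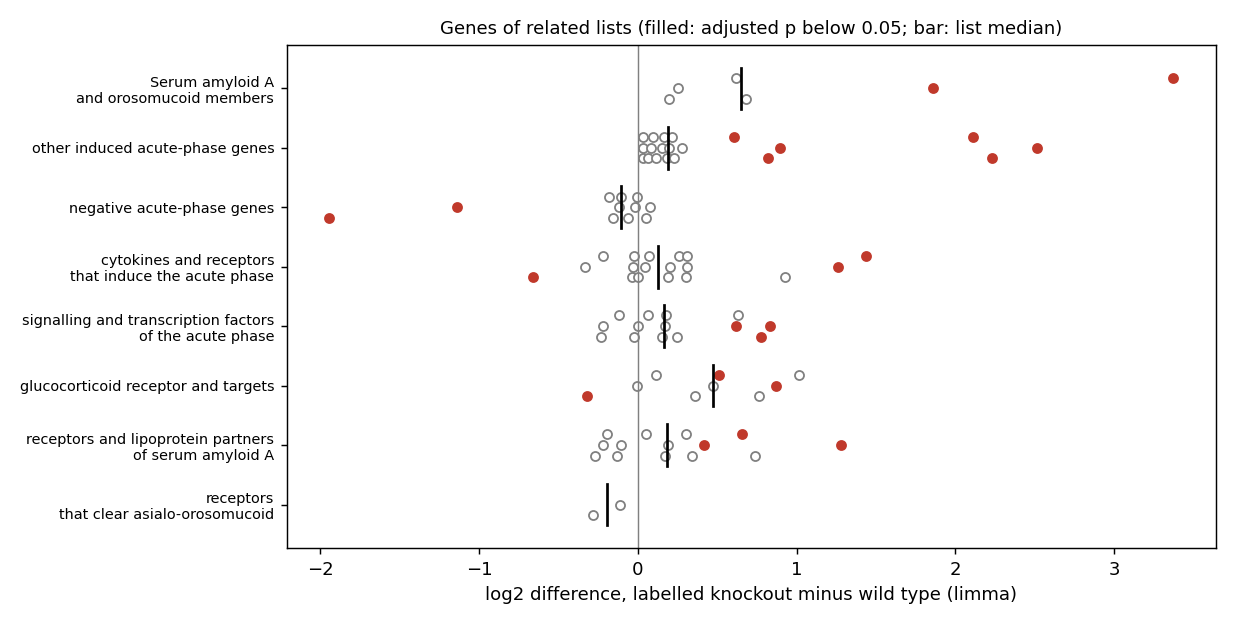
Log2 difference (labelled knockout minus wild type) of every measured gene of the members and of 7 related lists; filled points were called and black bars are list medians. The members' median is 0.65, and the medians of the other lists lie between -0.20 and 0.47.

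Genes beside the clusters were compared as well. None of the 10 nearest measured neighbours of the Saa members was called, with log2 differences between -0.34 and 0.27. With 3.15% of all genes called, so short a list would often hold no called gene. Of 10 neighbours of the Orm members, Tmem268 (1.01; limma adjusted p = 0.00605) and Akna (0.41; 0.0363) rose and 8 did not pass; Akna lost its call when any array other than WT array 3 was left out (up to 0.106). These 2 were named after their values were seen.

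Markers of other cells that can make or accompany these transcripts were compared as well. Here too, the shares called over all genes were 1.56% higher and 1.59% lower. Of 13 neutrophil markers 10 rose and none fell, among them Mmp8 (2.16) and Cxcr2 (0.86), and the mean log2 level of the list was 7.06 to 7.66 in arrays labelled knockout, against 6.18 to 6.56 in wild-type arrays. Of 12 Kupffer cell and macrophage markers 6 rose, among them C1qb (0.64) and Cd163 (1.01), with list means of 9.82 to 10.27 against 9.29 to 9.59. Of 7 monocyte markers 5 rose, among them Fcgr4 (1.37) and Chil3 (1.05; lost without WT array 3, adjusted p = 0.0502), with list means of 7.56 to 8.20 against 6.63 to 7.12. None of 6 adipocyte markers was called. Their log2 differences ran from -0.05 to 0.48, 4 of the 6 above 0, with list means of 6.32 to 6.54 in arrays labelled knockout, against 6.20 to 6.33 in wild-type arrays. Lep (0.26) had groups that did not overlap, and Fabp4 had 0.48 over all arrays, 1.17 in arrays with Xist signal and -0.21 in those with Y-linked signal. Of 8 hepatocyte markers 1 rose, Tat, and the list means were 12.77 to 12.84 against 12.76 to 12.82, so the labelled tissue shows its markers in every array. Among the other lists 1 of 7 sinusoidal endothelial markers rose (Lyve1, 1.05), 1 of 8 T and NK cell markers rose (Il2rb, 0.67), 1 of 7 stellate cell markers fell (Lrat, -1.01), and none of 5 bile duct and 5 B and plasma cell markers was called. Il2rb lost its call without WT arrays 1, 2 or 4 or KO-labelled arrays 2 or 4, and Lrat when any array other than KO-labelled array 1 was left out (up to 0.104 and 0.124). The part of these cells in the differences of Saa3 and Orm3 was not tested.

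The genes whose levels followed each member most closely over the 8 arrays were named as a description. Among 18669 genes, Saa3 was followed most closely by Cptp (Pearson r = 0.993), Morc2a (0.990) and Spin1 (0.988), and Orm3 by Sh2d3c (0.997), Tesk1 (0.995) and Zscan26 (0.985). For Saa2 they were Tcstv1 (0.974), Olfr532 (0.968) and the complement gene C4b (0.965), and for Orm1 Tcstv1 (0.978), Ppp4c (0.964) and Olfr532 (0.957). For Orm2 they were Rap1gap2 (0.975), Myo7a (0.971) and Bcl2l11 (0.965), and for Saa4 Tmem176a (0.972), Apoa5 (0.968) and Fgf23 (0.965). These values include the difference between groups, share the same 8 arrays, and are the highest of many. Tcstv1 averaged 3.48 in arrays labelled knockout and 3.35 in wild-type arrays, near the lower end of a scale that starts at 2.49.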

How the data were processed

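Liver RNA of 4 mice labelled IL-10 knockout and 4 wild-type mice was hybridised to Affymetrix Mouse Gene 2.0 ST arrays. The deposited values are log2 levels that the authors made with RMA, and R 3.0.1 is named too, per the submitters' processing notes. Background settings, summary level and build: not given in the sources used here. Precision is limited by the number of arrays, and no probe intensities were used. The design text counts 4 mice per genotype but ties no sample to a numbered animal, and p-values reflect spread among samples only.

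Rows naming 1 gene in the platform annotation (23521 of 41345; 1814 name several and 16010 are unnamed) gave 22180 genes, the row with the highest mean being kept. Arrays labelled knockout were compared with wild-type arrays in limma 3.58.1 (R 4.3.3; lmFit, eBayes, no covariates, no filter) over all genes. Pairs of members were compared with exact permutation tests (scipy 1.17.1), and promoters aligned with Biopython 1.88. Fits were checked on simulated data.

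The members and lists were chosen with earlier results of these data known. Named genes are the members, the 3 most correlated genes of each, called list genes (up to 6 by smallest p), a set of inducers, receptors and plasma proteins given whatever their values, and 2 markers per cell type. Alternatives covered filters, rows, scaling, variance models, a replicate block, single arrays left out, the threshold, and the arrays with Xist or Y-linked signal; each changes 1 choice, except that eBayes trend and robust were set together.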

Additional observations from a re-analysis of the deposited data

How the results depend on the processing

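Directions of all 6 members were the same under every alternative run (22 each), but most of these runs could not have reversed them. Many reuse the same log2 difference, and fits on fewer arrays cannot reverse groups that do not overlap. Saa3 changed its side of the threshold under 1, an unmoderated test (3.37; adjusted p = 0.0819), which called 0 genes in all (4141 at an unadjusted p under 0.05; limma called 699). Orm3 lost its call in 10: every row of the table, eBayes with trend and robust settings, the unmoderated test and the replicate block (1.86 in each; adjusted p = 0.0687, 0.0758, 0.165 and 0.0537), arrays with Y-linked signal (2.07; 0.177), and the 5 single arrays named above. Without single arrays the range was 1.45 to 2.10 for Orm3 and 0.46 to 0.87 for Orm2. At an adjusted p below 0.1 Saa2 (0.62) passed too. Saa1 could not be followed alone under any setting. Saa3 minus Orm2 was 3.29 in arrays with Xist signal and 2.09 in those with Y-linked signal.

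The 699 called genes became 1685 at an adjusted p below 0.1, 332 over every row, 317 in arrays with Xist signal, 171 in those with Y-linked signal, and 207 to 1040 without single arrays (207 both without WT array 1 and without KO-labelled array 4). A common median gave 236 higher and 393 lower, against 347 and 352. At 0.1 the lists of inducing cytokines and receptors, of glucocorticoid targets and of serum amyloid A partners each had 5 called genes. Leaving out 1 array allows no permutation p under 0.0571, so the pair differences have no test there.

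Both groups use replicate numbers 1 to 4, and the deviations of same-numbered arrays correlated at r = 0.27, 0.04, -0.10 and 0.29. Replicates 1 and 4 correlated best with their own number and replicates 2 and 3 with another, so the numbers were not taken to pair the samples. The replicate block gave 497 called genes and changed no call of a member but that of Orm3. A block for the Xist and Y-linked sets kept the calls of all 46 called genes of the lists besides the members, and added 5. Saa2, Saa4, Orm1 and Orm2 read near the top of the scale, and whether that limits their differences was not tested.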

Other observations

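The row that names both Saa1 and Saa2 belongs to neither gene alone and was left out of the comparisons. It read 12.91, 12.91, 12.73 and 13.02 in the arrays labelled knockout and 11.94, 11.18, 10.55 and 11.83 in wild-type arrays (log2 levels), and the groups did not overlap. Group means of 12.90 ± 0.12 and 11.37 ± 0.64 (SD, n = 4 arrays each) differed by 1.52 on the log2 scale (exact two-sided permutation p = 0.0286, at the lower limit of 70 arrangements). That lies between the 0.62 of the row naming Saa2 alone and the 3.37 of Saa3. WT arrays 1 and 4 were again the 2 highest wild-type arrays.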
